A study of Mus musculus with 48 samples.

Results

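The 10 genes described here mark which transmitter a neuron releases, or mark cells that lie beside the dopamine neurons of the substantia nigra (SN). They were chosen by symbol: *Slc17a6* and *Slc17a7* for glutamate, *Gad1*, *Gad2* and *Slc32a1* for GABA, *Slc6a5* for glycine, *Pvalb* for fast-spiking cells, *Tph2* and *Slc6a4* for serotonin, and *Chat* for acetylcholine. All 10 were present among the 55385 genes of the tables before batch correction and among the 19601 genes of the batch-corrected tables. The study compared the SN of male C57BL/6J mice that received an injection of preformed fibrils (PFFs) of α-synuclein or of monomeric α-synuclein into the right striatum and then breathed 21% or 11% O2. Each of the 4 groups (monomer at 21%, PFF at 21%, monomer at 11% and PFF at 11% O2) held 12 mice, injected at 121 days of age and killed 90 to 98 days later, at up to 219 days of age. Only monomer replicate 11 at 11% O2 was killed at 98 days, and all other mice at 90 or 91 days. The labels and the methods read as hypoxia from the day of injection, whereas the deposited design text gives 6 weeks at 21% O2 followed by 6 weeks at 11% O2. The authors' batch-corrected tables hold 42 of the 48 mice (11, 12, 9 and 10 in the order above), since 6 were left out after a principal components analysis. Each library came from 1 mouse and from bulk dissected SN, so a lower share of a cell type and less RNA per cell cannot be told apart.

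In the mouse midbrain, the dopamine neurons of the SN pars compacta lie against the GABA neurons of the pars reticulata, many of which fire fast and contain parvalbumin. The SN is bordered by nuclei of glutamate neurons, among them the subthalamic nucleus, the red nucleus and the mammillary region, and farther away by thalamus, hippocampus and cortex. Serotonin neurons lie in the raphe and send fibres to the SN, and cholinergic motor neurons lie in the nearby oculomotor nucleus. GABA is made from glutamate by 2 decarboxylases and loaded into vesicles by a carrier shared with glycine, whereas glutamate is loaded by the vesicular transporters VGLUT1 or VGLUT2.

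The 42 retained libraries held 12902996 to 17120921 counts. The tissue label was set beside 12 dopamine neuron markers, all of which were detected, with medians from 6.76 TPM (a level normalised to transcript length and to the library) for *Foxa2* to 1022 TPM for *Slc6a3*. Their detection shows dopamine neurons in the tissue and cannot tell the SN from other dopamine cell groups. All 8 hindbrain Hox genes had medians under 1 TPM (at most 0.344 TPM, *Hoxa2*), and the medians of the noradrenaline markers *Dbh*, *Slc6a2* and *Phox2a* were 0. Batches are those of the labels, which place the mouse killed at 98 days in batch 3. Batch 3 held no monomer mice at 21% O2, and batch 2 held no monomer mice at 11% O2.

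*Slc17a6*, *Gad1*, *Slc32a1* and *Pvalb* carried the opposition between *Slc17a6* and the GABA markers that is described below, and the 250 bases before the RefSeq start of each (GRCm38.p6) are shown to place them side by side. The windows are chr7:51621580-51621829 on the plus strand, chr2:70561879-70562128 on the plus strand, chr2:158610508-158610757 on the plus strand and chr15:78206401-78206650 on the minus strand, in the order of the lines, each written 5′ to 3′ on the strand of its gene, with capitals for the E-box letters CANNTG.
Slc17a6: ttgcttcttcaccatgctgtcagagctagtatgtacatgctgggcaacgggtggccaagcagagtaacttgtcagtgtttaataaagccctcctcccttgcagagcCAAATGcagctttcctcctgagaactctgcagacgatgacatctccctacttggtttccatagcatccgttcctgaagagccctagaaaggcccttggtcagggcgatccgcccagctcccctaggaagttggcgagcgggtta
Gad1: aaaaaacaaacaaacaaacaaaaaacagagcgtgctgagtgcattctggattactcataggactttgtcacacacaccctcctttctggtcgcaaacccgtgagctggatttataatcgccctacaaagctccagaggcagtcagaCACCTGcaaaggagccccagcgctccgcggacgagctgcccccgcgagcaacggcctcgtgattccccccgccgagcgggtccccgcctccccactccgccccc
Slc32a1: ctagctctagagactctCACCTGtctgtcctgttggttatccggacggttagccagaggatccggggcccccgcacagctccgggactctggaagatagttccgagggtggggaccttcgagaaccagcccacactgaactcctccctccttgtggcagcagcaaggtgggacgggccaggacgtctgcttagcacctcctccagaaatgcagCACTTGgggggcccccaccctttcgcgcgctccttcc
Pvalb: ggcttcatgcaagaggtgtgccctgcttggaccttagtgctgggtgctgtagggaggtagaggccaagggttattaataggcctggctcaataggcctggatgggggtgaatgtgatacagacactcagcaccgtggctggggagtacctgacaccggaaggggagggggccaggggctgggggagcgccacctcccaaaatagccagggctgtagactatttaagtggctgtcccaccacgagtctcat
The E-box letters, which read the same on both strands, occurred 1 time in the *Slc17a6* window, 1 time in *Gad1*, 2 times in *Slc32a1* and not in the *Pvalb* window. Of all 32851 windows of this length, 66.2% held at least 1 E-box. On either strand, TATAAA occurred in the *Gad1* window only (12.4% of all windows), and GGGCGG occurred in the *Slc17a6* and *Gad1* windows (32.7% of all windows). TGACG (17.8% of all windows) and AGATAA (9.99% of all windows) occurred in none of the 4, and no base of these windows lay in more than 1 of the motifs. The second RefSeq window of *Slc17a6*, not shown, held 2 E-boxes and 1 TGACG, and that of *Pvalb* held 1 E-box. The *Gad1* window lies within the longer GENCODE span of the gene that is given below. These matches describe letters and not binding.

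GABA markers and parvalbumin were the most abundant members and *Slc6a4* the least. On the TPM scale before correction (mean ± SD, n = 42), *Pvalb* stood at 639 ± 140, *Gad1* at 418 ± 77.4, *Slc32a1* at 363 ± 72.7 and *Gad2* at 265 ± 29.0. *Slc17a6* stood at 32.9 ± 27.3 TPM and *Slc17a7* at 9.30 ± 3.92 TPM. The 4 scarce members were *Tph2* at 1.39 ± 0.568 TPM, *Slc6a5* at 0.896 ± 0.477 TPM, *Chat* at 0.515 ± 0.292 TPM and *Slc6a4* at 0.0644 ± 0.117 TPM. This order held mouse by mouse for *Gad2* over *Slc17a6* and for *Slc17a7* over *Tph2* (42 of 42 mice each), and for *Pvalb* over *Gad1* in 41 mice, *Slc32a1* over *Gad2* in 40 and *Chat* over *Slc6a4* in 39. It held less widely for *Gad1* over *Slc32a1* (37 of 42), *Slc17a6* over *Slc17a7* (37), *Tph2* over *Slc6a5* (34) and *Slc6a5* over *Chat* (29). The mean ± 1 SD intervals overlapped in these 4 pairs and in *Slc32a1* and *Gad2*, and did not overlap in the other neighbours.

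**Figure D1:**
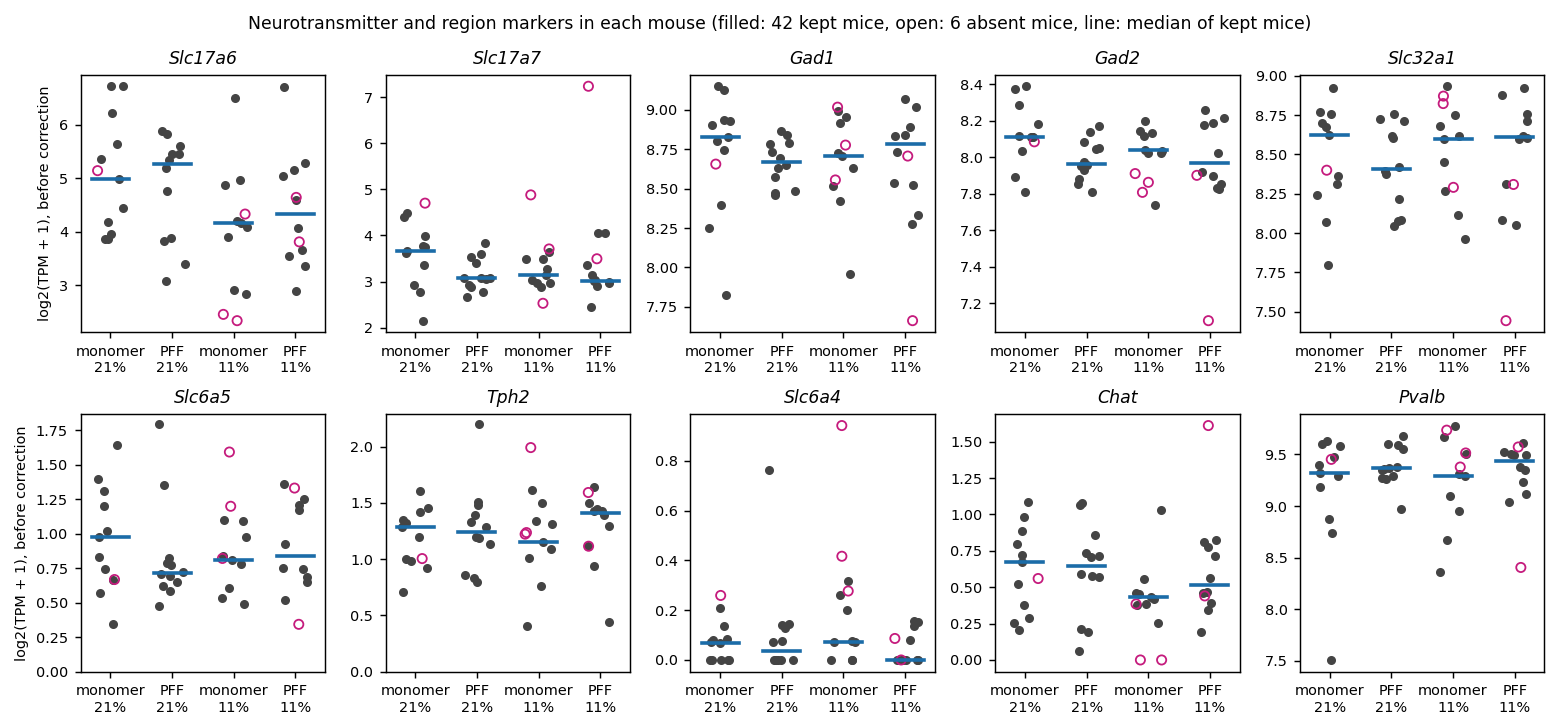
Level of each of the 10 members in every mouse, as log2(TPM + 1) before batch correction, by injection and O2 (n = 12 mice a group). Filled points are the 42 retained mice, open points the 6 mice absent from the corrected tables, and the line is the median of the retained mice. The groups overlapped for every member, and the widest vertical spread was that of *Slc17a6*.

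*Slc17a6* (chr7:51622006-51671119, plus strand, mm10) encodes VGLUT2, the vesicular glutamate transporter of most subcortical glutamate neurons. Its TPM before correction (lowest, median and highest mouse) was 13.7, 30.5 and 104 in monomer mice at 21% O2, 7.44, 37.5 and 58.3 in PFF mice at 21%, 6.13, 16.97 and 89.5 in monomer mice at 11%, and 6.48, 19.5 and 104 in PFF mice at 11%. The groups overlapped over most of their range, and the highest mouse reached 89.5 to 104 TPM in 3 of the 4 groups. The 3 mice near 104 TPM were monomer replicates 1 and 4 at 21% O2 and PFF replicate 4 at 11% O2. By batch, the *Slc17a6* median was 34.7 TPM in batch 1 (6.13 to 104), 16.4 in batch 2 (9.24 to 73.4) and 16.97 in batch 3 (6.48 to 42.8).

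The GABA markers had narrower distributions. *Gad1* (chr2:70553072-70602014, plus strand), which encodes the decarboxylase GAD67, had a median of 454 TPM in monomer mice at 21% O2 (226 to 567), 407 in PFF mice at 21% (351 to 465), 417 in monomer mice at 11% (248 to 507) and 440 in PFF mice at 11% (308 to 537). *Gad2* (chr2:22622205-22693874, plus strand), which encodes GAD65, had medians of 276 TPM (224 to 334), 249 (224 to 288), 262 (212.9 to 293) and 250.1 (226 to 306) in the same order. All 4 groups overlapped for both decarboxylases, and the mice lowest in *Gad1*, monomer replicate 4 at 21% O2 and monomer replicate 3 at 11% O2, were among those highest in *Slc17a6*.

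*Slc32a1* (chr2:158610767-158615748, plus strand) encodes VGAT, the vesicular carrier of GABA and glycine. Its median was 393 TPM in monomer mice at 21% O2 (222 to 484), 339 in PFF mice at 21% (263.4 to 431), 386 in monomer mice at 11% (249 to 488) and 389 in PFF mice at 11% (264 to 484), with overlap of all groups. It shares 697 exonic bases with the antisense gene *Gm14205*, and reads of these genes cannot be told apart in libraries whose kit does not mark strand. *Pvalb* (chr15:78191114-78206400, minus strand), the calcium-binding protein of fast-spiking neurons, had medians of 640 TPM (181.1 to 793), 659 (502 to 817), 625.3 (327 to 878) and 692 (524 to 779) in the same order. Its lowest mouse, at 181.1 TPM, was again monomer replicate 4 at 21% O2. By batch, the *Slc32a1* median was 276 TPM in batch 1, 416 in batch 2 and 388 in batch 3, whereas the *Pvalb* median was 627, 666 and 635 TPM.

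*Slc17a7* (chr7:45163949-45176142, plus strand) encodes VGLUT1, the transporter of cortical and hippocampal glutamate neurons. Its median was 11.7 TPM in monomer mice at 21% O2 (3.44 to 21.4), 7.43 in PFF mice at 21% (5.36 to 13.2), 7.79 in monomer mice at 11% (6.33 to 11.5) and 7.10 in PFF mice at 11% (4.42 to 15.7). The monomer group at 21% O2 held both the lowest and the highest retained mouse. *Slc6a5* (chr7:49910146-49963856, plus strand), the glycine transporter GLYT2 of glycinergic neurons, had medians of 0.967 TPM (0.269 to 2.11), 0.644 (0.388 to 2.47), 0.748 (0.406 to 1.14) and 0.789 (0.435 to 1.56). The groups overlapped for this gene too.

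The serotonin and acetylcholine markers were close to the limit of detection. *Tph2* (chr10:115078641-115185022, minus strand), the neuronal rate-limiting enzyme of serotonin synthesis, had medians of 1.44 TPM in monomer mice at 21% O2 (0.635 to 2.03), 1.37 in PFF mice at 21% (0.736 to 3.597), 1.23 in monomer mice at 11% (0.325 to 2.06) and 1.66 in PFF mice at 11% (0.354 to 2.12). *Slc6a4* (chr11:76998603-77032340, plus strand), the serotonin transporter, collected 88 counts in all 48 mice and was at 0 in 20 of the 42 retained mice, where a count of 0 allows up to 3 counts, or 0.142 to 0.185 TPM in a library of usual depth. Its highest retained mouse, PFF replicate 12 at 21% O2 with 0.696 TPM, was also highest in *Tph2* and in *Slc6a5*, at 3.597 and 2.47 TPM. Batch 1 held 4 of the *Slc6a4* counts and batch 3 held 63, over 16 mice each.

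*Chat* (chr14:32408203-32465989, minus strand), the enzyme of acetylcholine synthesis, had medians of 0.597 TPM (0.153 to 1.12), 0.569 (0.0455 to 1.11), 0.350 (0.191 to 1.04) and 0.430 (0.140 to 0.775) in the order monomer and PFF at 21% O2, then monomer and PFF at 11% O2. The vesicular acetylcholine transporter gene *Slc18a3*, which lies within *Chat* on the same strand without shared exonic bases, had a median of 0.0960 TPM, and *Phox2a*, a regulator of oculomotor neurons, had a median of 0. Across retained mice, the ratio of *Slc32a1* to *Slc17a6* TPM ran from 2.13 in monomer replicate 4 at 21% O2 to 74.7 in PFF replicate 10 at 11% O2, with a median of 14.7. The ratio of *Gad1* to *Gad2* TPM ran from 0.821 to 1.96 around a median of 1.61, and its lowest value came from the same monomer mouse.

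The first comparison asked whether PFFs shifted these markers at 21% O2. None of the 9 members tested was called by edgeR's quasi-likelihood test (adjusted p < 0.05 and an absolute log2 fold change over 0.25), where 3.7% of 14839 genes were called. *Slc6a4* had too few counts to be tested. The median log2 fold change of the 9 members was -0.06, and that of all genes 0.000849. The largest shifts were +0.67 for *Slc17a6* (SE 0.686, edgeR adjusted p = 0.605, 95% interval -0.71 to 2.06) and -0.49 for *Slc17a7* (SE 0.241, edgeR adjusted p = 0.215, interval -0.98 to -0.01). *Slc17a7* was the 1 member with an unadjusted p under 0.05, which 22.4% of all genes had. *Gad1* differed by -0.08 (interval -0.30 to 0.14), *Gad2* by -0.10 (interval -0.22 to 0.02), *Slc32a1* by -0.06 (interval -0.25 to 0.13) and *Pvalb* by 0.10 (interval -0.28 to 0.47) on the log2 scale.

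At 11% O2, PFF and monomer mice did not differ in any of the 9 members beyond the threshold. edgeR called 0% of the 14839 genes in this comparison, 3.92% had an unadjusted p under 0.05, none of them a member, and DESeq2 called 1 gene. The members' log2 differences (PFF minus monomer) lay between -0.06 for *Gad2* (interval -0.18 to 0.07) and 0.35 for *Chat* (interval -0.31 to 1.01), with a median of 0.18 against -0.000602 over all genes. *Slc17a6* differed by 0.18 on the log2 scale (interval -1.39 to 1.75), so a difference of several fold in either direction lay within its interval.

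Hypoxia was compared within each injection. In monomer mice, 7.23% of all genes were called between 11% and 21% O2 and 0 of the 9 members. The members' median log2 difference was -0.11 (-0.00596 over all genes), and the widest values were -0.62 for *Slc17a6* (SE 0.761, edgeR adjusted p = 0.645), -0.47 for *Slc17a7* (SE 0.261, edgeR adjusted p = 0.236) and -0.46 for *Chat* (SE 0.315, edgeR adjusted p = 0.352). In PFF mice, 0.58% of all genes and 0 of the 9 members were called. The median there was 0.02 (-0.00631 over all genes), and *Slc17a6* had the widest value at -1.11 (SE 0.721, edgeR adjusted p = 0.613, interval -2.57 to 0.34). No member had an unadjusted p under 0.05 in either hypoxia comparison, where 27.7% (monomer mice) and 10.7% (PFF mice) of all genes had one.

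The interaction, which asks whether the effect of PFFs differed between 11% and 21% O2, was called for 2.14% of genes and for 0 of the 9 members. An unadjusted p under 0.05 was reached by 15.4% of genes and by no member. Its log2 values ran from -0.49 for *Slc17a6* (interval -2.58 to 1.60) to 0.50 for *Slc17a7* (interval -0.23 to 1.23), with a median of 0.12 against -0.000566 over all genes. No member was called by DESeq2 or by limma in any of the 5 comparisons. Fitted without the filter on low counts, *Slc6a4* differed between PFF and monomer mice at 21% O2 by 1.10 on the log2 scale (SE 0.701, edgeR adjusted p = 0.408). The 95% intervals of *Gad1*, *Gad2* and *Slc32a1* lay between -0.30 and 0.32 on the log2 scale in the 4 comparisons of 2 groups, whereas those of *Slc17a6* reached from -2.57 to 2.06.

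**Figure D2:**
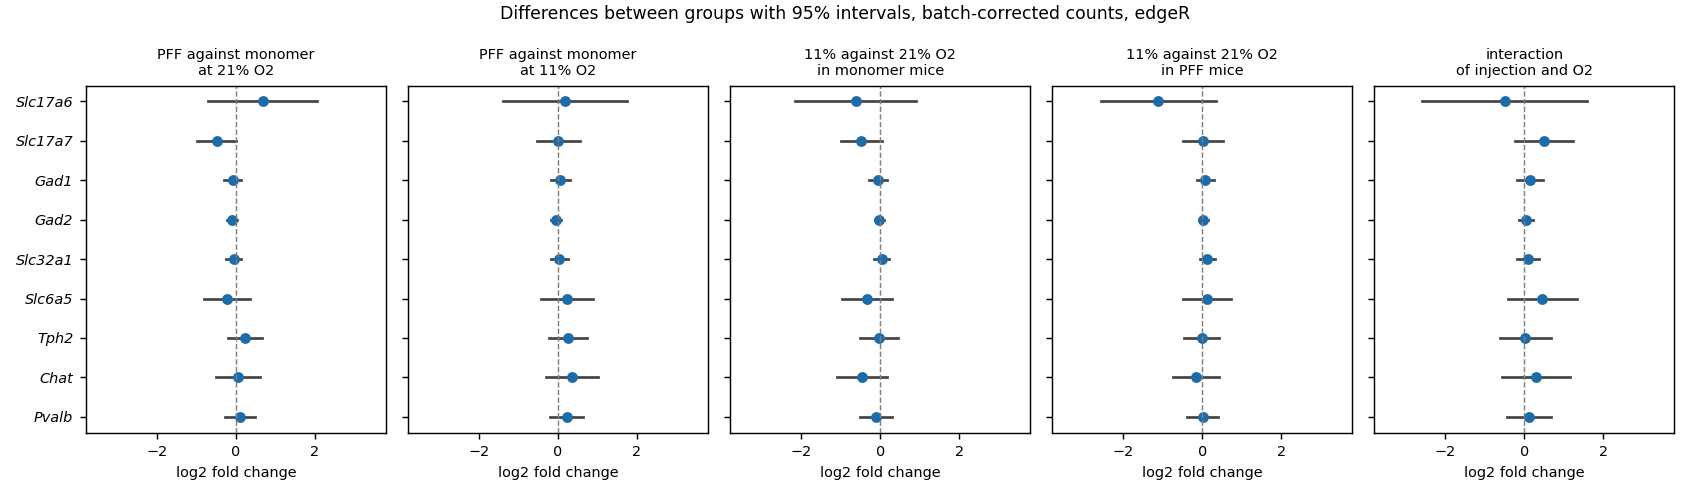
Log2 fold changes of the 9 tested members in the 4 comparisons of 2 groups and the interaction (edgeR on batch-corrected counts, 42 mice). Points are estimates and bars are 95% intervals. The bars of *Slc17a6* are the widest, and none of the 9 members passed the threshold in any of the 5 comparisons.

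The width of the *Slc17a6* intervals moved with the batch correction, and its biological coefficient of variation in edgeR was 1.33 after it and 0.637 before it. The value after correction came from a fit by group and the value before it from a fit by group within batch, so they differ in model as well. Without any centring, the SD of log2(TPM + 1) of *Slc17a6* was 1.10 before and 2.25 after correction. In 8 of the 42 mice, 4 in batch 2 and 4 in batch 3, its corrected count was less than 0.1 of the count before correction. It went from 150 to 1 in monomer replicate 7 at 11% O2, from 230 to 1 in PFF replicate 12 at 21% O2 and from 311 to 2 in PFF replicate 7 at 21% O2. No other member had such a mouse, and of 12597 genes with a mean count of at least 50, 29 (0.230%) had one. The *Slc17a6* range widened from 6.13 to 104 TPM before correction to 0.0434 to 120 TPM after it. The largest displacement of another GABA or glutamate marker was in *Slc17a7*, whose corrected counts were 0.430 to 1.85 times those before correction, against 0.940 to 1.06 for *Gad2*.

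**Figure D3:**
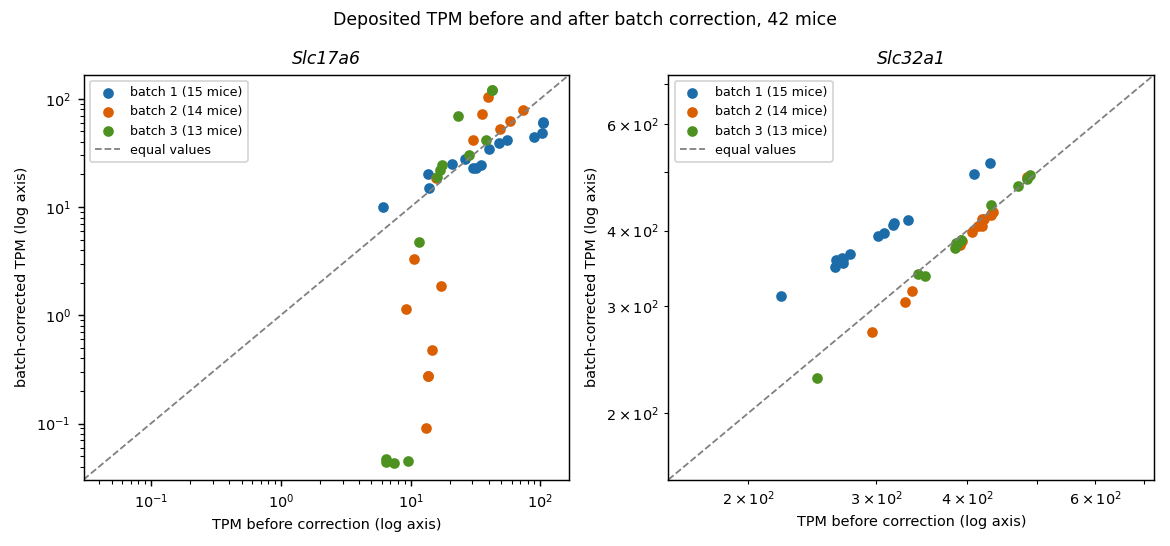
TPM after against before the authors' batch correction for *Slc17a6* and *Slc32a1* in 42 mice, both axes logarithmic, coloured by batch, with a dashed line of equality. For *Slc17a6*, mice of batches 2 and 3 with low values fall far below the line, to 0.0434 TPM, while for *Slc32a1* batch 1 lies above the line and batches 2 and 3 lie near it.

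The group means of *Slc17a6* changed order with the correction. Before it they were 43.7 TPM in monomer and 32.7 TPM in PFF mice at 21% O2, and after it 32.4 and 50.6 TPM. The medians before correction, given above, were already higher in PFF than in monomer mice at 21% O2. The monomer mean before correction included the mice near 104 TPM named above. When uncorrected counts of the 42 mice were fitted with a batch term, the PFF difference at 21% O2 was -0.22 on the log2 scale (SE 0.410) instead of 0.67, and the interaction was 0.46 (SE 0.623) instead of -0.49. In batch 1 alone the PFF difference at 21% O2 was -0.89 and in batch 2 alone 0.29. The difference between 11% and 21% O2 in PFF mice was 0.64, -1.60 and -0.38 in batches 1, 2 and 3, with an edgeR adjusted p of 0.469 in batch 2. *Slc17a6* had no direction common to these batches, and none of its values was called. For *Slc17a7*, the PFF difference at 21% O2 was -0.11 in batch 1 and -0.67 in batch 2 (edgeR adjusted p = 0.173), the same direction as in the corrected counts.

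The spread between mice within a group and batch was wide for most members. As the SD of log2(TPM + 1) before correction, centred on the mean of each group within batch, it was 1.02 for *Slc17a6*, 19th from the top of 14349 genes with a mean of at least 1 TPM, whose median was 0.129. *Slc17a7* followed at 0.444 (rank 361) and *Pvalb* at 0.404 (rank 490). *Gad1* had an SD of 0.263 (percentile 88.2), *Slc32a1* of 0.222 (percentile 81.8) and *Gad2* of 0.138 (percentile 54.6). Thus 9 of the 10 members lay above the median of all genes, the exception being *Slc6a4* at 0.126, a gene with 0 counts in many mice. With a pseudocount of 0.1 instead of 1 its SD was 0.579 (percentile 97.0), and all 10 members lay above the median. After batch correction, with values centred by group only, *Slc17a6* had an SD of 2.32, the highest of 14513 genes.

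Mice with more *Slc17a6* had less of the GABA markers, *Slc6a5* and *Pvalb*, and more *Chat*. Of 45 pairs of members, correlated over the 42 mice after removal of group and batch means, 16 passed in both Pearson and Spearman permutation tests (Benjamini-Hochberg adjusted p < 0.05 over the 45 pairs), 8 positive and 8 negative. The share of pairs of other genes that would pass was not examined, so this count does not set the members apart from other genes. *Slc17a6* was negatively correlated with *Gad1* (r = -0.68, permutation p = 3e-05, adjusted p = 0.000337, rho = -0.68, p = 2e-05, adjusted p = 0.0003). Without the 2 mice farthest from the median this r was -0.63, and within batches 1, 2 and 3 it was -0.84, -0.69 and -0.36. Batches held 15, 14 and 13 retained mice.

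*Slc17a6* was also negatively correlated with *Pvalb* (r = -0.62, permutation p = 0.0002, adjusted p = 0.0018, rho = -0.68, p = 3e-05, adjusted p = 0.000337), with r of -0.58 without 2 mice and -0.75, -0.67 and -0.29 by batch. Its r with *Slc32a1* was -0.52 (permutation p = 0.00185, adjusted p = 0.0064; rho = -0.56, p = 0.00098, adjusted p = 0.00495), -0.63 without 2 mice and -0.85, -0.46 and -0.20 by batch. This relation did not pass with batch-corrected TPM (r = -0.33) or over all 48 mice (r = -0.36). With *Chat* the sign was positive (r = 0.62, permutation p = 0.00072, adjusted p = 0.00405, rho = 0.57, p = 0.00258, adjusted p = 0.00967), with 0.59 without 2 mice and 0.69, 0.47 and 0.70 by batch. All 4 relations kept their sign in the 3 batches, and the negative ones were weakest in batch 3.

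Among the GABA markers, *Gad1* and *Pvalb* were the closest pair (r = 0.90, rho = 0.84, permutation p = 1e-05 for both, the smallest these permutations can give, adjusted p = 0.000225 and 0.0003), with 0.85 without 2 mice and 0.94, 0.90 and 0.73 by batch. *Gad1* and *Slc32a1* followed (r = 0.77, permutation p = 1e-05, adjusted p = 0.000225, rho = 0.74, p = 2e-05, adjusted p = 0.0003), with 0.77 without 2 mice and 0.91, 0.59 and 0.79 by batch. *Gad1* and *Gad2*, the 2 decarboxylases, had an r of 0.59 (permutation p = 0.00185, adjusted p = 0.0064, rho = 0.53, p = 0.00179, adjusted p = 0.00732), 0.42 without 2 mice and 0.67, 0.66 and 0.42 by batch. *Slc17a7*, *Tph2* and *Slc6a4* took part in none of the 16 pairs. The r of *Tph2* and *Slc6a4*, which both mark serotonin neurons, was 0.50 (permutation p = 0.108, adjusted p = 0.240, rho = 0.19, p = 0.307, adjusted p = 0.476) and fell to 0.26 without PFF replicates 9 and 12 at 21% O2. By batch it was 0.09, 0.09 and 0.63.

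**Figure D4:**
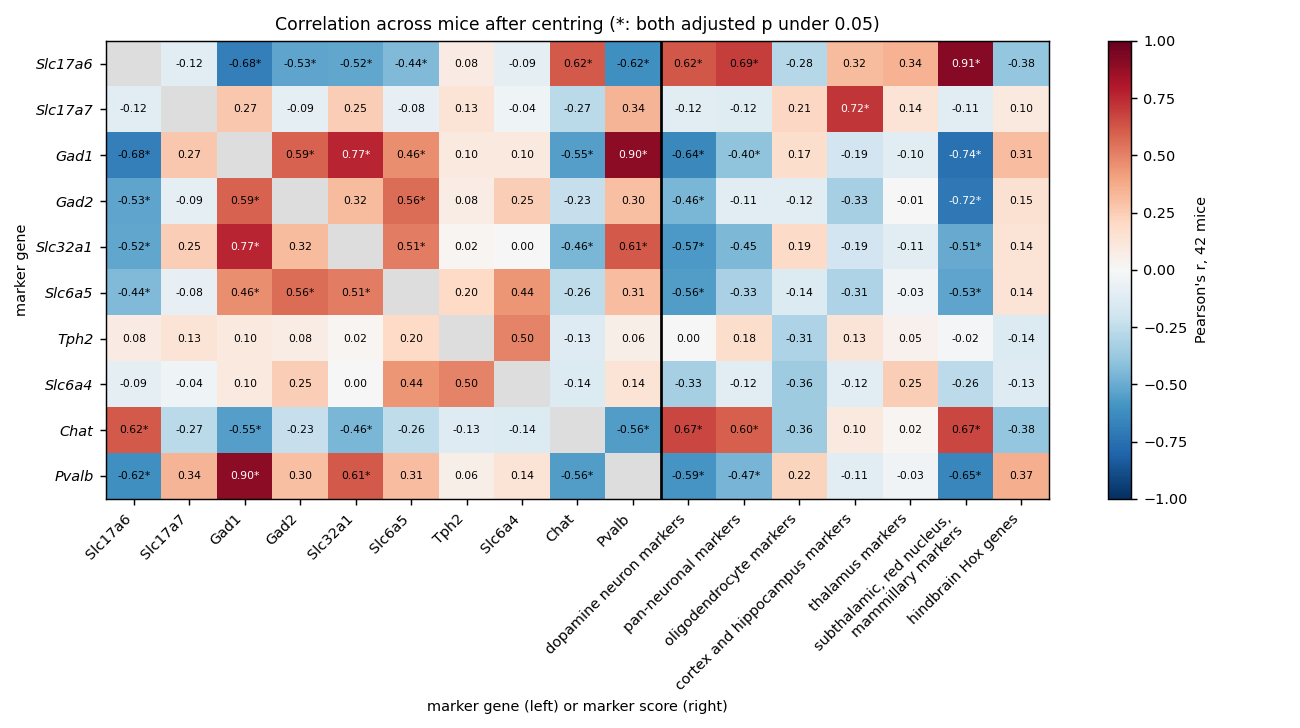
Pearson r between the 10 members, and between members and 7 tissue marker scores, over 42 mice after group and batch centring. A star marks relations past the threshold in both tests. *Slc17a6* and *Chat* are positive with each other and negative with *Gad1*, *Slc32a1* and *Pvalb*, while *Slc17a7* has a star with the cortex and hippocampus score only.

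Marker scores of neighbouring regions were then set beside the members. A score is the mean centred log2(TPM + 1) of a list that holds no member, and 19 of 70 relations passed (7 positive, 12 negative). The share of other genes that would pass with these scores was not examined either. *Slc17a6* went with the score of markers of the subthalamic nucleus, red nucleus and mammillary region, among them *Barhl1*, *Foxb1* and *Lmx1a* (r = 0.91, rho = 0.92, permutation p = 1e-05 for both, adjusted p = 0.000175 and 0.0007), with 0.90 without 2 mice and 0.95, 0.74 and 0.96 by batch. Medians of this list ran from 0.178 TPM for *Pou4f1* to 5.06 TPM for *Lmx1a*. Whether its genes mark these nuclei alone, and not dopamine neurons as well, was not tested. *Slc17a6* was also positive with the dopamine neuron score (r = 0.62, permutation p = 0.00028, adjusted p = 0.00178, rho = 0.64, p = 0.00025, adjusted p = 0.00146), with 0.66 without 2 mice and 0.63, 0.41 and 0.81 by batch. With the pan-neuronal score its r was 0.69 (permutation p = 3e-05, adjusted p = 0.00035, rho = 0.72, p = 3e-05, adjusted p = 0.0007), 0.68 without 2 mice and 0.70, 0.62 and 0.80 by batch, and *Chat* passed with that score as well (r = 0.60, permutation p = 6e-05, adjusted p = 0.000467, rho = 0.63, p = 8e-05, adjusted p = 0.000875), with 0.69 without 2 mice and 0.71, 0.53 and 0.60 by batch. The part of general neuronal content in these relations was not tested. Genes of the pan-neuronal list did not all move together. *Nefl*, which is in that list, had an r of 0.93 with *Pvalb*, whereas the score had an r of -0.47 with *Pvalb*. The r of *Slc17a6* with the thalamus score, 0.34, did not pass and was 0.30, 0.67 and -0.50 by batch.

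*Gad1* moved against the same scores. With the subthalamic, red nucleus and mammillary score its r was -0.74 (permutation p = 1e-05, adjusted p = 0.000175, rho = -0.68, p = 3e-05, adjusted p = 0.0007), -0.63 without 2 mice and -0.88, -0.84 and -0.43 by batch. With the dopamine score its r was -0.64 (permutation p = 1e-05, adjusted p = 0.000175, rho = -0.61, p = 0.00014, adjusted p = 0.00098), -0.60 without 2 mice and -0.83, -0.73 and -0.58 by batch. *Gad2*, *Slc32a1*, *Slc6a5* and *Pvalb* were likewise negative with both of these scores past the threshold, and *Chat* was positive with both. The relation of *Gad2* with the dopamine score (r = -0.46) did not pass without monomer replicate 3 at 11% O2 (r = -0.41) and was 0.0193 over all 48 mice. Over all 48 mice, *Slc32a1* with either score (r = -0.24 and -0.23), *Gad2* with the subthalamic, red nucleus and mammillary score (r = -0.24) and *Chat* with that score (r = 0.44) did not pass either. Among retained mice, monomer replicate 4 at 21% O2 had both the highest summed dopamine markers, at 6079 TPM, and the lowest *Gad1* and *Pvalb*. The summed subthalamic, red nucleus and mammillary markers were highest, at 59.0 TPM, in monomer replicate 3 at 11% O2, which had 89.5 TPM of *Slc17a6* and 248 TPM of *Gad1*.

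*Slc17a7* followed a different score. It passed with the cortex and hippocampus list, which includes *Neurod6*, *Tbr1* and *Cux2* (r = 0.72, permutation p = 3e-05, adjusted p = 0.00035, rho = 0.68, p = 7e-05, adjusted p = 0.000875), with 0.69 without 2 mice and 0.60, 0.86 and 0.60 by batch, and with no other of the 7 scores. Its r with *Slc17a6*, the other glutamate transporter, was -0.12 (permutation p = 0.53, adjusted p = 0.701, rho = -0.17, p = 0.367, adjusted p = 0.533). The log2 total count of a library passed with 0 of the 10 members in a further family of 10 relations, and its r was -0.07 with *Slc17a6* and 0.15 with *Gad1*.

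**Figure D5:**
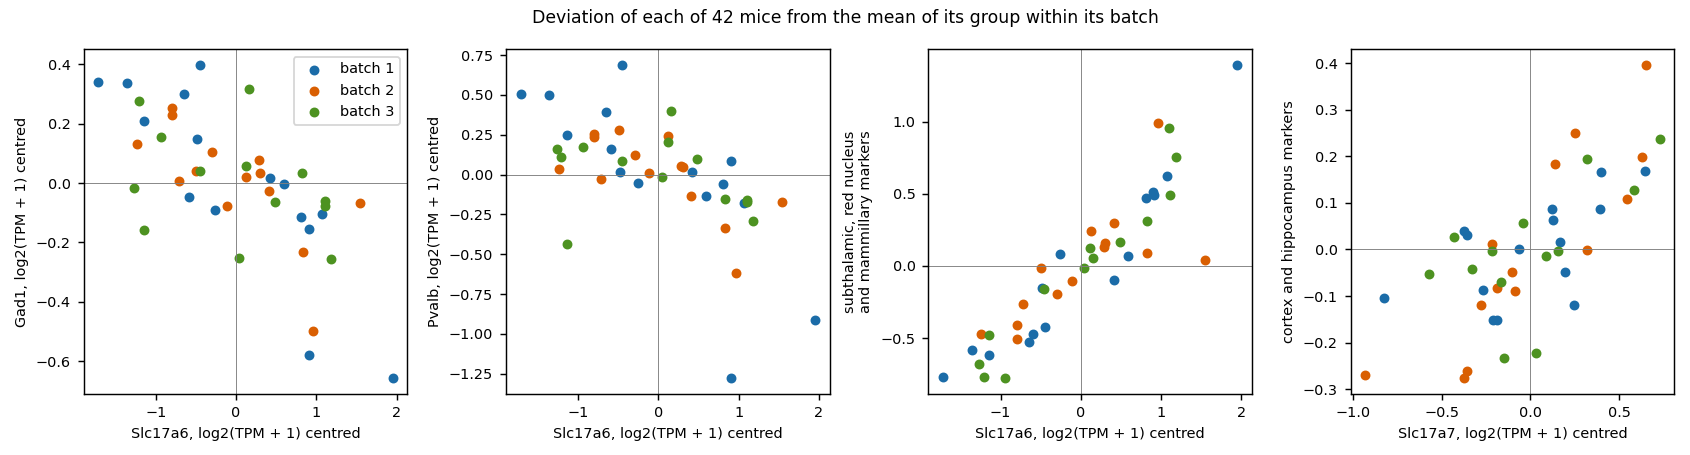
Centred log2(TPM + 1) of 42 mice, coloured by batch, for *Slc17a6* against *Gad1*, *Pvalb* and the subthalamic, red nucleus and mammillary score, and for *Slc17a7* against the cortex and hippocampus score. The points fall along a declining line in the first pair of panels (r = -0.68 and -0.62) and a rising line in the others (r = 0.91 and 0.72).

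The genes most like each member across the 42 mice, of 14349 genes, are given as a description. They were *Adcyap1* (r = 0.98), *Cacna2d1* (0.97) and *Dgkk* (0.96) for *Slc17a6*, and *Kcnh3* (0.86) and *Ptk2b* (0.84) for *Slc17a7*. For *Gad1* they were *Fgf11*, *Kcnab3* and *Steap2* (0.96 each), for *Slc32a1* *Limk1* (0.96), *Pfkm* (0.94) and *Panx2* (0.94), and for *Gad2* *Lancl3* (0.82), *Oxr1* (0.80) and *Sod2* (0.79). *Pvalb* was closest to *Kctd9* (0.93), the neurofilament gene *Nefl* (0.93) and the potassium channel subunit *Kcnmb2* (0.92). *Slc6a5* was closest to *Tmem132c* (0.78), *Adcy2* (0.77) and *Insyn2a* (0.76), and *Chat* to *Armcx4* (0.78), *Rragd* (0.78) and *Gprasp1* (0.77). The scarce serotonin markers reached lower values, with *Fkbp5* (0.59), *Gla* (0.59) and *Rab24* (0.56) for *Tph2* and *Ablim1* (0.65), *Msantd2* (0.65) and *B3galt2* (0.62) for *Slc6a4*. The most opposite genes were *Ldhb* (-0.84) for *Slc17a6*, *Ldha* (-0.87) for *Gad1*, *Hnrnpa1* (-0.87) for *Slc32a1* and *Rtl5* (-0.84) for *Pvalb*. Strong negative relations were thus not limited to transmitter markers.

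Other genes of the same transmitter systems showed no calls. In each of the 5 comparisons, edgeR called 0 of 7 GABA genes, 0 of 4 glutamate supply genes, 0 of 6 glycine genes, 0 of 6 tested serotonin genes (of 8, among them *Ddc* and *Slc18a2*, which dopamine neurons also express and which are counted again in the dopamine list), 0 of 4 tested cholinergic genes (of 7) and 0 of 7 fast-spiking and calcium-binding genes. The same held for 12 dopamine neuron markers, 6 pan-neuronal markers, 7 of 8 cortex, 4 of 5 thalamus and 4 of 5 subthalamic, red nucleus and mammillary markers that could be tested, and the Hox and noradrenaline lists held no gene with enough counts. Of all genes, edgeR called 3.7% (PFF at 21% O2), 0% (PFF at 11%), 7.23% (hypoxia in monomer mice), 0.58% (hypoxia in PFF mice) and 2.14% (interaction). An absence of calls in lists this short is therefore no result about them. By stereology, the paper counted fewer tyrosine hydroxylase-positive neurons in the pars compacta of PFF mice at 21% O2. That count is a different measure from RNA of the entire SN, so the absence of calls does not speak to it. The subthalamic, red nucleus and mammillary list had median log2 differences of 0.85 (PFF at 21% O2), -0.09 (PFF at 11%), 0.25 (hypoxia in monomer mice), -0.67 (hypoxia in PFF mice) and -0.79 (interaction), and its summed level before correction ran from 6.20 to 34.9, 6.33 to 40.1, 7.54 to 59.0 and 6.32 to 49.7 TPM in the 4 groups. This is the list with which *Slc17a6* varied most closely, and the part of such region markers in its group differences was not tested. Among lists of other cells, endothelial *Cldn5* was higher at 11% O2 in monomer and PFF mice (0.74 and 0.47 on the log2 scale), as was *Flt1* (0.52 and 0.53), and *Pecam1* was higher in monomer mice (0.65). Oligodendrocyte *Mog* and *Cnp* were higher at 11% O2 in monomer mice (0.32 and 0.26), and *Mog* had an interaction of -0.33, all past the edgeR threshold. Monomer mice at 21% and 11% O2 shared batch 1 only. Between them, 1073 genes were called from corrected counts and 657 from uncorrected counts of the 42 mice with a batch term. Values of the endothelial and oligodendrocyte genes from that second fit are not given here. No astrocyte, microglia or choroid plexus marker was called.

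The 6 mice absent from the corrected tables were set against the retained mice of their own group and batch (3 to 7 mice). Over these mice, 34 of 60 member values lay outside the retained range. PFF replicate 2 at 11% O2, with 3134594 counts against at least 12902996 in the retained libraries, had 9 members outside, where 86.0% of 14408 genes were outside. Its *Slc17a7* was 150 TPM against 4.42 to 6.93 in the retained mice, its *Gad1* 201.7 TPM against 308 to 367 and its *Chat* 2.05 TPM against 0.642 to 0.775. The summed cortex and hippocampus markers of the absent mice reached 128 TPM in this mouse, against 20.03 to 33.4 TPM in all retained mice.

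Monomer replicate 9 at 11% O2 had 9 members outside (40.1% of genes), with *Slc17a6* at 4.07 TPM against 6.51 to 28.4, *Slc6a5* at 2.01 TPM against 0.406 to 1.14, *Tph2* at 2.97 TPM against 0.325 to 1.48, *Slc6a4* at 0.921 TPM against 0.0517 to 0.245 and *Gad1* at 517 TPM against 341 to 507. *Chat* was at 0 in this mouse and in monomer replicate 8 at 11% O2, where 0 counts allow up to 0.159 TPM. Replicate 8 had 7 members outside (47.5% of genes), with *Slc17a6* at 4.50 TPM, so that the 2 lowest *Slc17a6* values of all 48 mice came from absent mice. Monomer replicate 10 at 21% O2 and monomer replicate 12 at 11% O2 had 2 members outside each (40.0% and 34.9% of genes), and both were high in *Slc17a7*, at 25.0 TPM against 6.61 to 21.4 and 28.5 TPM against 6.80 to 10.3. PFF replicate 5 at 11% O2 had 5 members outside (69.6% of genes), all of them lower. The share of members outside was thus above that of all genes in monomer replicates 8 and 9 at 11% O2, close to it in PFF replicate 2 at 11% O2 and below it in the other three. These mice were left out by principal components of highly variable genes, which may include members, so the shares are only a description. All genes here have a mean of at least 1 TPM, whereas *Slc6a5*, *Chat* and *Slc6a4* do not. These scarce members were outside in both monomer replicates 8 and 9.

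When uncorrected counts of all 48 mice were fitted with a batch term, *Slc17a7* was 1.22 higher on the log2 scale at 11% than at 21% O2 in PFF mice (SE 0.460, edgeR adjusted p = 0.199), against 0.08 (SE 0.201) in the same fit over 42 mice. PFF replicate 2 at 11% O2, the mouse with 150 TPM, was part of that fit, and the value was not called.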

How the data were processed

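Poly(A) RNA of dissected SN from 48 mice was sequenced as unstranded libraries. The authors aligned reads with STAR 2.7.5a to mm10, counted them per gene with featureCounts 2.0.1 (GENCODE vM24), deposited the counts and TPM values of 48 mice, excluded 6 mice by principal components (Scanpy 1.8.1), and deposited ComBat-seq batch-corrected counts and TPM values of 42. The submitters' processing notes also name Picard 2.21.9 and GATK 4.1.5.0-9. Depth in the retained mice was 12902996 to 17120921 counts.

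From the deposited corrected counts, all genes past filterByExpr (14839) were tested in 1 fit of 4 groups by edgeR 4.0.16 (R 4.3.3, TMM, quasi-likelihood test, Benjamini-Hochberg over all genes), and called at an adjusted p under 0.05 with an absolute log2 fold change over 0.25. The script was tested on simulated counts. Correlations used log2(TPM + 1) before correction, centred by group within batch, with 100000 two-sided permutations within group and batch. Alternatives were DESeq2 1.42.0 and its size factors, no filter, limma 3.58.1 on TPM with pseudocounts of 1 and 0.1, batch as a covariate, single batches, only the groups compared, a replicate block and leaving out each mouse. One further alternative, correlations without monomer replicate 3 at 11% O2, was chosen after seeing the data.

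Gene coordinates are those of GENCODE vM21 (GRCm38, the same build), and promoter windows those of RefSeq (10 of 10 members matched, 3 of them with 2 windows, the first being shown). All members were named in the text. Of other lists (transmitter genes, region markers and cell type markers) the called genes were named, up to 4 a list and comparison by smallest p, and for each member the 3 genes with the highest r. The gene with the lowest r was named for *Slc17a6*, *Gad1*, *Slc32a1* and *Pvalb*. Some genes of the lists and of these nearest genes are not reported here. The members and lists were chosen with earlier results of these data known.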

Additional observations from a re-analysis of the deposited data

Results flagged for a closer look

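In 4 of 20 sets of 9 or 10 mice, the highest or lowest mouse stood apart from the rest by Dixon's criterion, which chance alone meets in about 1 of 20 sets of normally distributed values. Of these, 3 came from monomer replicate 3 at 11% O2, with 89.5 TPM of *Slc17a6*, 212.9 TPM of *Gad2*, the lowest of its group, and 1.04 TPM of *Chat*. The other was PFF replicate 4 at 11% O2, with 103.7 TPM of *Slc17a6*. Both mice were of batch 1, and the sets pooled batches and held the same mice for every member, so the flags are not independent and that rate does not allow for batch. The criterion was applied to TPM and not to its log, and that rate does not hold for skewed levels such as those of *Slc17a6*. The groups at 21% O2, with over 10 mice each, were not examined.

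In mice absent from the corrected tables, 10 of 60 member values exceeded the highest retained monomer mouse at 21% O2, against 21.0% of the values of all 14408 genes with a mean of at least 1 TPM, so the count is no result about the members. *Slc17a7* was 150 TPM in PFF replicate 2 at 11% O2, 25.0 TPM in monomer replicate 10 at 21% O2 and 28.5 TPM in monomer replicate 12 at 11% O2, against at most 21.4 TPM. *Slc6a4* was 0.197 TPM in monomer replicate 10 at 21% O2, and 0.335, 0.921 and 0.212 TPM in monomer replicates 8, 9 and 12 at 11% O2, against at most 0.155 TPM. Monomer replicate 9 at 11% O2 also had 2.97 TPM of *Tph2* (at most 2.03 TPM) and 851 TPM of *Pvalb* (at most 793 TPM), and PFF replicate 2 at 11% O2 had 2.05 TPM of *Chat* (at most 1.12 TPM).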

How the results depend on the processing

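No member was called in any of the 194 alternative fits. Of 1732 alternative log2 differences of members, 153 had the other sign, 62 of them among the 1134 values with 1 mouse left out, and 38 of the 45 differences had at least 1 such alternative. The direction of these 38 was therefore not the same in every alternative. Single batches and fits with 1 mouse left out are among the alternatives, so they change the mice as well as the processing. With 1 mouse left out, 0 members were called in each comparison, and 404 to 597, 0 to 1, 886 to 1289, 64 to 99 and 243 to 390 genes of all tested in the PFF comparisons at 21% and 11% O2, the hypoxia comparisons of monomer mice and of PFF mice, and for the interaction term.

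The paper describes a randomized matched-pairs design, whose pairs were not known here. Replicate numbers showed no clear pairing, though mice of unlike numbers were not compared. Deviations of same-numbered mice correlated above 0.1 in 21 of 54 pairs (from -0.400 to 0.558, median 0.00335), and with the replicate block 0 members were called in each of the 5 comparisons.

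Of 115 relations with members or scores, 11 more passed when values were centred by group only. With all 48 mice the r of *Gad2* and the dopamine neuron score turned from -0.46 to 0.0193, 7 relations fell below the threshold and 6 rose above it, and the cause was not tested. With batch-corrected TPM 2 fell below it, among them *Slc17a6* with *Slc32a1* (r = -0.33), and without monomer replicate 3 at 11% O2 2 did, *Gad1* with the pan-neuronal score (r = -0.38) and *Gad2* with the dopamine score (r = -0.41). Set against the retained mice of their group over all batches, absent mice had 22 of 60 member values outside the range instead of 34 (24.7% to 72.8% of all genes a mouse). Depth limits *Slc6a4*, with 88 counts in all.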
